A study of Drosophila melanogaster with 30 samples.

Results

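The probes described here are those that gave ratios of a single sign on the arrays comparing fru P1 mutant with wild-type males in the central nervous system (CNS) of Drosophila melanogaster pupae. They were chosen by their values on the 6 arrays of that experiment: at least 5 deposited values, all of one sign, and an absolute mean of at least 0.4 log2 units, with control spots left out. Of 15744 probes, 7461 had at least 5 values and could have been chosen, and 148 of these were (1.98%), 98 with positive and 50 with negative ratios. The question followed here is how these members behaved in the other experiments of the series, whose arrays had no part in the choice.

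Each array compared a pair of samples directly, one labelled with Cy5 and the other with Cy3. In the fru CNS experiment, males of w; fru-w12/fru-ChaM5 were compared with males of w; Berlin on replicates 1 to 3, and males of fru-440/fru-P14 with Canton S males on replicates 4 to 6, all at 48 h after puparium formation (APF) and with RNA of about 20 brains and ventral nerve cords. The same pairs of genotypes were compared in whole male pupae at 48 h APF, with RNA of about 30 animals, on 4 arrays for fru-440/fru-P14 (replicates 1 to 4) and 4 for w; fru-w12/fru-ChaM5 (replicates 5 to 8). Females and males of Canton S were compared in the CNS at 48 h APF on 4 arrays. Males of fru P1-GAL4; uas-EcRA RNAi were compared with fru P1-GAL4; + males, which carry the same driver, on 4 arrays at 0 h APF (about 20 brains and ventral nerve cords) and on 4 arrays in adults of up to 24 h (about 20 brains). Another 4 arrays hold this RNAi genotype in the CNS at 48 h APF, and only the signs of their values are described. The driver limits this model to the cells in which fru P1-GAL4 is active, whereas RNA came from whole organs. The labels give no shared strain background for mutants and their controls, so allele and background cannot be told apart. Whole-body cDNA was labelled directly and CNS RNA was amplified first, per the labels' protocols.

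The P1 promoter of fruitless gives transcripts that are spliced sex-specifically, and in males they encode FRUM, a family of zinc-finger transcription factors made in a subset of neurons and needed for male courtship behaviour. The ecdysone receptor EcR binds the steroid hormone that drives metamorphosis, and EcR-A is one of its isoforms. In the GAL4/UAS system a GAL4 driver turns on a construct, here an RNA interference (RNAi) hairpin against EcR-A, only in the cells that make GAL4.

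Probes carry plate-position IDs, which the sources used here do not pair with gene names. They are therefore named by ID, with no role given, and neither the tissue labels nor the levels of fru and EcR-A were checked against probes. The labels do not say whether a positive ratio means more RNA in the mutant or in the wild type, and nothing links the sign of a whole-body ratio to that of a CNS ratio, so every sign below is simply the one deposited. Between the allele pairs of the fru CNS experiment, which also differ in dye orientation (mutant in Cy5 on replicates 1 to 3 and in Cy3 on replicates 4 to 6), Pearson's r over probes ran from -0.576 to -0.0439 for the 9 pairs of arrays, against 0.253 to 0.759 for the 6 pairs within an allele pair. Allele pair and dye orientation cannot be told apart there. In the other CNS experiments with both dye orientations, arrays of opposite dye orientation also ran against each other, with r from -0.277 to -0.0233 between the sexes, from -0.381 to -0.214 in RNAi at 0 h and from -0.643 to -0.481 in RNAi adults (4 pairs of arrays each), whereas in the whole body r across dyes within an allele pair was 0.145 to 0.405. That the CNS ratios were turned to one direction before deposit is therefore an assumption, which these correlations go against most in RNAi adults, and the counts of called members and the list medians below are also given with the ratios read as Cy5 over Cy3. Read instead as Cy5 over Cy3 on every array, the same rule gave 451 positive and 546 negative probes, so the membership itself depends on the direction of the ratios. The fru CNS arrays gave a value for 6228 to 10598 probes each, and the number of arrays limits the precision.

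Single-signed ratios were uncommon on the fru CNS arrays. Of the 7461 probes with enough values, 429 (5.75%) had a single sign, 164 positive and 265 negative. The size rule then kept 98 of the positive and 50 of the negative ones. It was met by 406 probes in all, of which 258 had mixed signs. Just inside the threshold lay DAC016A20 and DAC020H14, with mean log2 ratios of 0.4013 and 0.4033, and just outside DAC022D06 and DAC003A13, with 0.3917 and 0.3891. On the negative side DAC038K18 (-0.4007) and DAC039D08 (-0.4026) lay inside, and DAC023C20 (-0.3981) and DAC020E03 (-0.3953) outside.

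The positive members had mean log2 ratios from 0.401 to 1.66, with a median of 0.611, and 12 of them reached 1. The negative members ran from -0.401 to -1.46, with a median of -0.511, and 3 of them reached a size of 1. The median SD over arrays was 0.388 for positive and 0.326 for negative members, so a typical member varied between arrays by more than 0.3 log2 units. All fru CNS values are given as a description, since they chose the members. In extracts of whole tissue, fewer cells of a type and less RNA per cell cannot be told apart.

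DAC024C11 had the largest positive mean, with log2 ratios of 1.08, 1.502 and 1.65 in fru-w12/fru-ChaM5 and 1.75 and 2.32 in fru-440/fru-P14, a mean of 1.66 ± 0.45 (SD, n = 5 arrays). Its lowest value was still above 1, and the fru-440/fru-P14 arrays lay above the others. DAC030F08 had 1.35, 0.95 and 0.87 in the first pair and 2.61, 2.33 and 0.26 in the second, a mean of 1.39 ± 0.91 (SD, n = 6 arrays). Replicate 6 was the lowest array for DAC030F08 and replicate 4 the highest, so the values of one pair enclosed those of the other. DAC026B13 had 0.87, 0.87 and 1.20 against 2.53, 2.02 and 0.70, a mean of 1.36 ± 0.74 (SD, n = 6 arrays). Its replicate 6 again lay below the other arrays.

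DAC025F14 went the other way between the pairs, with 1.62, 2.20 and 2.49 in fru-w12/fru-ChaM5 and 0.83, 0.24 and 0.36 in fru-440/fru-P14, a mean of 1.29 ± 0.95 (SD, n = 6 arrays). The pairs did not overlap, and the first was higher. DAC006N11 and DAC024F15 had the opposite order. DAC006N11 had 0.30, 0.067 and 0.64 against 2.23, 2.32 and 1.31, a mean of 1.15 ± 0.97 (SD, n = 6 arrays), and DAC024F15 had 0.29, 0.19 and 0.13 against 2.03, 1.86 and 2.02, a mean of 1.09 ± 0.97 (SD, n = 6 arrays). For both of these members the mean over arrays therefore came mostly from fru-440/fru-P14. DAC034L24 had 1.39 and 1.22 on the arrays with a value in the first pair and 2.07, 0.63 and 0.73 in the second, a mean of 1.21 ± 0.58 (SD, n = 5 arrays), and DAC027O08 had 0.75, 0.74 and 0.77 against 1.61, 2.34 and 0.41, a mean of 1.10 ± 0.73 (SD, n = 6 arrays). In both of these the fru-440/fru-P14 arrays spread widely around the others.

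Among the negative members DAC037L17 had the largest mean, with -0.91, -1.07 and -1.51 in fru-w12/fru-ChaM5 and -2.15 and -1.67 in fru-440/fru-P14, a mean of -1.46 ± 0.50 (SD, n = 5 arrays). All its values were below -0.9, and the pairs did not overlap. DAC020O21 had -1.54, -0.47 and -0.58 against -0.45, -1.54 and -2.27, a mean of -1.14 ± 0.75 (SD, n = 6 arrays), and DAC019N08 had -1.39 and -1.37 against -0.87, -0.70 and -1.36, a mean of -1.14 ± 0.33 (SD, n = 5 arrays). The pairs overlapped for DAC020O21 and not for DAC019N08, where replicate 6 came very near the other pair. DAC037B06, at -1.49, -1.48 and -1.03 against -0.59 and -0.29, was more negative in fru-w12/fru-ChaM5, and DAC037J24, at -0.0067, -0.64 and -0.50 against -1.53, -1.49 and -1.08, in fru-440/fru-P14. DAC037J24 on replicate 1 was all but 0, so its place among the members hung on the sign of a very small value.

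Of the other 3 of the 8 most negative members, DAC033A13 was the most even. It had -0.93, -0.50 and -0.77 against -0.84, -0.78 and -0.95, a mean of -0.80 ± 0.16 (SD, n = 6 arrays), the smallest SD of the 16 members with the largest means. DAC030B09 had -1.21, -0.87 and -0.98 against -0.75, -0.52 and -0.49, a mean of -0.80 ± 0.28 (SD, n = 6 arrays), and DAC019H10 had -0.90, -0.87 and -1.35 against -0.24, -0.58 and -0.74, a mean of -0.78 ± 0.37 (SD, n = 6 arrays). In DAC030B09 and DAC019H10 the fru-w12/fru-ChaM5 arrays were the more negative ones, without overlap.

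The sizes in the allele pairs were compared across the members. The median log2 ratio of the positive members was 0.605 in fru-w12/fru-ChaM5 and 0.620 in fru-440/fru-P14, and 62 of the 98 had a mean of at least 0.4 in both. Across the 98 positive members, Pearson's r between the pair means was 0.0488, and across the 50 negative members it was -0.0305. These points share their arrays, and r over members selected by sign and size is a description. The rule sets the sign and the mean over both pairs, which itself bears on such an r. No lack of relation between the pairs is therefore read from it. Of the positive members 47 were larger in fru-440/fru-P14 and 51 in fru-w12/fru-ChaM5, and in 25 the sizes differed by more than 2-fold on the log2 scale. The negative members leaned to fru-440/fru-P14, with 31 of 50 larger there and medians of -0.428 and -0.611 in the respective pairs. Only 18 of them reached 0.4 in both pairs, and 31 differed by more than 2-fold.

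Members were measured unevenly elsewhere, and positive members in particular were often missing in the RNAi experiments. On the fru CNS arrays themselves, 54 of the 98 positive members had 5 values and 44 had 6, and 25 lacked replicate 1 (25.5%, against 3.75% of all 7461 probes with enough values). The sign of these 25 was thus not checked on replicate 1. Without that array, and with at least 4 values asked for, the rule gave 368 positive members. At 0 h of the RNAi experiment 39 of 98 had at least 3 values (39.8%), against 32 of 50 negative members (64.0%) and 68.3% of the 7461. In RNAi adults these shares were 31.6%, 64.0% and 68.3%. In the whole body the order was different: 78.6% of the positive members, 62.0% of the negative and 59.0% of the 7461 probes had at least 3 values in fru-440/fru-P14, and 86.7%, 84.0% and 81.6% in fru-w12/fru-ChaM5. For the sex arrays the shares were 71.4%, 96.0% and 87.4%. Of the positive members, 36 (36.7%) had at least 3 values in both whole-body pairs and at neither RNAi time, against 5 negative members (10.0%) and 10.3% of the 7461. Only 14 of the positive and 19 of the negative members had at least 3 values in all 5 experiments or pairs. Missing cells were left empty in the deposited table for reasons the sources used here do not give, so a missing value is not a low level.

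The members came from wells all over the probe collection. They lay on 38 of 41 plates, with a median of 3 members and at most 8 per plate. A single pair lay in neighbouring wells, DAC030F07 and DAC030F08, both positive members. DAC030F07 had fru CNS log2 ratios of 0.51 and 1.58 in fru-w12/fru-ChaM5 and 1.60, 0.95 and 0.43 in fru-440/fru-P14, a mean of 1.01 ± 0.56 (SD, n = 5 arrays). Over the 19 arrays that measured both probes r was 0.699, given as a description over arrays of several experiments. These include fru CNS arrays, on which the member rule makes both probes positive.

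Tests on the other experiments used limma, fitted over all probes with at least 75% of the values of each group and at least 1 value in each dye orientation. Each experiment had a coefficient for its effect and one for dye (one for both pairs in the whole body), with Benjamini-Hochberg adjustment over all probes tested and a threshold of 0.05. A called member is one whose adjusted p was under it. A gap between the dye orientations goes into the dye coefficient, and SEs and p-values do not contain it. Each SE is the one of the limma fit. Its spread is pooled over all arrays of that fit, including those of the other experiments or of the other allele pair. The eBayes step also draws it towards the spread of the other probes. The number of arrays given with an SE counts the values of that group, and the SE does not come from these arrays alone. The labels do not say whether the Canton S males of the sex arrays gave RNA to the fru CNS arrays too, so the values of each comparison stand side by side and no overlap of signs is given as a result.

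Between the sexes, 2 members passed the adjusted threshold. Of 70 positive members tested, 1 had a called positive and 1 a called negative ratio, and of 48 negative members none was called, while 24 (34.3%) and 6 (12.5%) had an unadjusted p under 0.05, against 7.00% of the 6524 tested among the 7461. Over all 7414 probes tested, 0.0674% had a called positive and 0.351% a called negative ratio. The median log2 ratio over arrays was 0.14 for positive members, -0.034 for negative members and 0.0020 for the 7461 probes, and 62.9%, 43.8% and 50.5% of the means were positive. Read as Cy5 over Cy3, the median effect of positive members turned from 0.14 to -0.24, and that of negative members went from -0.034 to -0.11. Positive members lay farther from 0 in either direction, with a median size of 0.318 against 0.111 for negative members and 0.113 for the 7461.

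DAC013J21 had log2 ratios of 1.55, 1.14, 1.38 and 1.33 on the 4 sex arrays. All were positive and close together in both dye orientations, giving 1.35 ± 0.13 (SE over 4 arrays, 2.55-fold, limma adjusted p = 0.0141). DAC039E15 had -2.16, -1.57 and -1.30 on the 3 arrays with a value, which all were negative, giving -1.80 ± 0.16 (SE over 3 arrays, 3.48-fold, limma adjusted p = 0.0226). Both had positive ratios on the fru CNS arrays, 0.081, 0.58 and 1.27 with 0.26 and 1.77 for DAC013J21 and 0.99 and 0.83 with 1.26, 0.14 and 0.60 for DAC039E15, so these members of one list lay on opposite sides in the sex comparison. Neither call is firm on 4 arrays: DAC013J21 lost its call without replicate 1, 3 or 4, with effects between 1.25 and 1.36, and DAC039E15 could not be tested without these. Ratios of a single sign on every sex array were found in 9 (positive) and 7 (negative) of the 70 positive members and in 4 and 5 of the 48 negative members. Over probes of the same filter the shares were 5.12% and 5.86%. Read as Cy5 over Cy3, 11 members of the same lists were called between the sexes, and neither DAC013J21 nor DAC039E15 was among them.

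Several members with large fru CNS means split by dye on the sex arrays instead. DAC030F08 had -0.17, -0.90, 1.64 and 1.84, negative where the female sample was in Cy5 (replicates 1 and 2) and positive where it was in Cy3, and its effect of 0.60 ± 0.14 (SE over 4 arrays, 1.52-fold, limma adjusted p = 0.175) did not pass. DAC020O21 had -2.03, -2.11, -0.27 and 0.77, strongly negative on the first pair of arrays alone, with -0.91 ± 0.19 (SE over 4 arrays, 1.88-fold, limma adjusted p = 0.1). DAC019N08, at -0.92, -0.67, 0.48 and 0.46, and DAC019H10, at -0.30, -1.06, 0.71 and 0.79, changed sign with the dye and had effects of -0.16 and 0.038. As a list, the positive members had medians of -0.11 and -0.25 on the arrays with the female in Cy5, and of 0.25 and 0.28 on those with the female in Cy3. The part of dye in these values was not tested.

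In the whole body more members differed between mutant and wild-type males, and positive members were called mostly positive in one allele pair and mostly negative in the other. In fru-440/fru-P14, 13 of 77 positive members tested had a called positive and 5 a called negative ratio, while of 31 negative members 6 had a called negative and none a called positive ratio (36 of the 77, 46.8%, and 16 of the 31, 51.6%, had an unadjusted p under 0.05, against 19.8% of the 4400 tested among the 7461). Over all 6394 probes tested 3.14% were called positive and 2.88% negative. In fru-w12/fru-ChaM5, 7 of 85 positive members tested were called positive and 29 negative. Of 42 negative members 1 was called positive and 6 negative, where 5.45% and 9.22% of 9699 probes were. An unadjusted p under 0.05 by limma was found in 53 of the 85 (62.4%) and 13 of the 42 (31.0%). Of the 6085 tested among the 7461, 28.9% had one, so negative members were near that share in this pair. Among the probes of the 7461 that were tested, 5.73% were called in either direction in fru-440/fru-P14 and 12.6% in fru-w12/fru-ChaM5. As a description of members that passed the filter, the called share was 23.4% and 42.4% for positive members in the respective pairs. It was 19.4% and 16.7% for negative members, the latter close to the share of all probes. Leaving out one array at a time cut the members called from 24 to between 11 and 16 in fru-440/fru-P14 (12, 11 and 14 without replicate 1, 2 or 3) and from 43 to between 26 and 31 in fru-w12/fru-ChaM5 (27, 26 and 26 without replicate 5, 6 or 7). Read as Cy5 over Cy3 on every array, no member was called in either pair.

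For positive members the median log2 ratio was 0.15 in fru-440/fru-P14, with 62.3% of the means positive, and -0.20 in fru-w12/fru-ChaM5, with 38.8% positive. For the 7461 probes it was -0.021 and 0.065, with 45.1% and 60.5% positive. Negative members had medians of -0.14 and -0.058, with 25.8% and 42.9% positive. Read as Cy5 over Cy3, the median effects of positive members were 0.043 and 0.081 and no longer opposed each other, and that of negative members in fru-440/fru-P14 turned from -0.14 to 0.063. Without replicate 6 or 7 the median effect of positive members in fru-w12/fru-ChaM5 was -0.12 or -0.11 in place of -0.20. Of the 77 and 85 positive members with at least 3 values, 23 had a positive and 14 a negative ratio on every array in fru-440/fru-P14 (over probes 13.9% and 18.3%), and 13 and 30 in fru-w12/fru-ChaM5 (over probes 17.4% and 12.3%). Of negative members 2 and 10 had so in fru-440/fru-P14, and 5 and 7 in fru-w12/fru-ChaM5. Array by array, the positive members had medians of 0.076, 0.10, 0.0023 and 0.033 in fru-440/fru-P14 and of -0.19, -0.13, -0.15 and -0.21 in fru-w12/fru-ChaM5, below 0 on all 4 arrays of the latter in both dye orientations. The quartiles of the positive members lay on both sides of 0 on every one of these 8 arrays, so the list held members on either side.

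In the fru-440/fru-P14 whole-body pair, DAC032I05 stood farthest from 0, with log2 ratios of 3.63, 3.67, 2.48 and 2.60 on replicates 1 to 4. All arrays were high, those with the mutant in Cy5 (the first pair) highest, and the effect was 3.10 ± 0.15 (SE over 4 arrays, 8.55-fold, limma adjusted p = 6.26e-06). In fru-w12/fru-ChaM5 the same probe had -0.53, -0.81, -0.63 and -0.88, all negative, with -0.71 ± 0.15 (SE over 4 arrays, 1.64-fold, limma adjusted p = 0.0125). Its fru CNS values were 1.08, 0.66 and 1.05 and 1.005, 1.01 and 0.34 in fru-w12/fru-ChaM5 and fru-440/fru-P14, positive in both. The shared sign in the CNS follows from the member rule, so only the opposite signs in the whole body are a result for this probe.

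DAC004B03 had the same pattern, with 2.71, 2.53, 1.27 and 1.56 in fru-440/fru-P14 and -0.998, -1.33, -1.71 and -1.48 in fru-w12/fru-ChaM5. The groups did not overlap, with effects of 2.02 ± 0.14 (SE over 4 arrays, 4.05-fold, limma adjusted p = 3.15e-05) and -1.38 ± 0.14 (SE over 4 arrays, 2.6-fold, limma adjusted p = 0.000556). In the CNS it had been positive in both pairs, as the member rule asks, at 0.39, 0.26 and 0.29 and at 0.93, 1.55 and 0.89. DAC026B13, one of the 3 members with the largest fru CNS means, had 2.75, 2.56, 0.89 and 1.44 in fru-440/fru-P14, all high, and 0.039, -0.32, -0.18 and -0.33 in fru-w12/fru-ChaM5, near 0. Only the first effect passed, at 1.91 ± 0.19 (SE over 4 arrays, 3.75-fold, limma adjusted p = 0.000463), against -0.20 ± 0.19 (SE over 4 arrays, 1.15-fold, limma adjusted p = 0.522). DAC037C07 had 1.04, 0.88, 0.36 and 0.25 against -0.33, -0.81, -0.81 and -0.70, positive on every array of one pair and negative on every array of the other, with 0.63 ± 0.12 (SE over 4 arrays, 1.55-fold, limma adjusted p = 0.0119) and -0.66 ± 0.12 (SE over 4 arrays, 1.58-fold, limma adjusted p = 0.00651).

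DAC008J16, a negative member, had the reverse order, with -1.03, -1.06, -1.33 and -1.53 in fru-440/fru-P14 and 0.44, 0.37, 0.45 and 0.59 in fru-w12/fru-ChaM5. Each pair kept a single sign in both dye orientations, with -1.24 ± 0.11 (SE over 4 arrays, 2.36-fold, limma adjusted p = 0.000151) and 0.46 ± 0.11 (SE over 4 arrays, 1.38-fold, limma adjusted p = 0.0196). Its CNS values were -0.56, -0.33 and -0.51 and -1.33, -1.13 and -0.29, negative in both pairs as the member rule asks. DAC037L17, the most negative member in the CNS, had -0.39, -1.46, -1.92 and -2.18 against 0.62, -0.19, -0.52 and -0.27. It was negative throughout in fru-440/fru-P14, at -1.49 ± 0.19 (SE over 4 arrays, 2.8-fold, limma adjusted p = 0.00176), and of mixed sign in the other pair, at -0.09 ± 0.19 (SE over 4 arrays, 1.06-fold, limma adjusted p = 0.778). DAC019N08 had -0.17, -0.67, -0.78 and -0.72 in fru-440/fru-P14, with -0.58 ± 0.12 (SE over 4 arrays, 1.5-fold, limma adjusted p = 0.0201), and -0.20, 0.16, -0.084 and -0.49 in fru-w12/fru-ChaM5, with -0.15 ± 0.12 (SE over 4 arrays, 1.11-fold, limma adjusted p = 0.418).

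In the fru-w12/fru-ChaM5 whole-body pair the farthest member was DAC024G07, a negative member with log2 ratios of -2.50, -2.67, -3.41 and -3.79. All 4 arrays were far below 0, giving -3.09 ± 0.12 (SE over 4 arrays, 8.53-fold, limma adjusted p = 8.74e-07). In fru-440/fru-P14 it had 0.21, 0.30, -0.64 and -0.21, of mixed sign around 0, with -0.085 ± 0.12 (SE over 4 arrays, 1.06-fold, limma adjusted p = 0.736). In the CNS it had been less negative, at -0.47, -1.09 and -0.71 and -0.45, -0.093 and -0.41. DAC037N08, a positive member, had -1.68, -0.96, -1.88 and -2.44 in fru-w12/fru-ChaM5, with -1.74 ± 0.18 (SE over 4 arrays, 3.34-fold, limma adjusted p = 0.000731), and -0.43, -0.70, -0.24 and -0.49 in fru-440/fru-P14 with an adjusted p of 0.172 by limma. DAC021O02, positive as well in the CNS, had -1.19, -0.82, -1.69 and -2.44, with -1.54 ± 0.16 (SE over 4 arrays, 2.9-fold, limma adjusted p = 0.000778), and -0.058, -0.42, -0.50 and -0.40 with a limma adjusted p of 0.263. Both of these were negative on all 8 whole-body arrays.

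DAC030B09, a negative member, had -1.44, -1.41 and -1.54 on the 3 arrays with a value in fru-w12/fru-ChaM5, with -1.52 ± 0.15 (SE over 3 arrays, 2.87-fold, limma adjusted p = 0.000778), and -0.75, -0.71, -0.30 and 0.09 in fru-440/fru-P14, with -0.42 ± 0.13 (SE over 4 arrays, 1.34-fold, limma adjusted p = 0.0895). DAC030F07 had -2.38, -0.99, -2.15 and -1.10 against -0.084, -0.0045, 0.033 and -0.23 in the same order, with -1.65 ± 0.21 (SE over 4 arrays, 3.15-fold, limma adjusted p = 0.0019) and -0.07 ± 0.21 (SE over 4 arrays, 1.05-fold, limma adjusted p = 0.89). Its neighbour DAC030F08 had -1.25, -0.50, -0.49 and 0.19 and -0.04, -0.72, -0.27 and 0.004, and neither effect passed (limma adjusted p = 0.0731 and 0.447). DAC024C11, the member with the largest CNS mean, was small in the whole body, at 0.38, 0.23 and 0.35 and 0.25, 0.62, -0.088 and 0.14 (limma adjusted p = 0.095 and 0.29).

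Some members had one sign in both whole-body pairs. DAC004L24, a negative member with fru CNS values of -0.45, -0.32 and -0.49 and -0.37, -0.45 and -0.53, had -1.76, -0.86 and -1.14 in fru-440/fru-P14 and -1.56, -1.67, -1.001 and -0.999 in fru-w12/fru-ChaM5. It was negative on all 7 whole-body arrays that measured it, with -1.18 ± 0.18 (SE over 3 arrays, 2.26-fold, limma adjusted p = 0.00504) and -1.31 ± 0.15 (SE over 4 arrays, 2.48-fold, limma adjusted p = 0.00157). DAC012B22 and DAC029D04, positive members, were negative on every whole-body array with a value. DAC012B22 had -0.96, -1.57, -0.80 and -0.47 and -1.34, -0.87, -1.78 and -0.81, with -0.95 ± 0.19 (SE over 4 arrays, 1.93-fold, limma adjusted p = 0.0169) and -1.20 ± 0.19 (SE over 4 arrays, 2.3-fold, limma adjusted p = 0.00406). DAC029D04 had -0.75, -1.11 and -1.30 and -0.50, -0.37 and -0.79, with -1.12 ± 0.13 (SE over 3 arrays, 2.17-fold, limma adjusted p = 0.00262) and -0.62 ± 0.13 (SE over 3 arrays, 1.53-fold, limma adjusted p = 0.0183). DAC013J21, called positive between the sexes, had -0.94, -2.28 and -1.03 in fru-w12/fru-ChaM5, all negative, with -1.40 ± 0.26 (SE over 3 arrays, 2.64-fold, limma adjusted p = 0.0089), and -0.34, -0.97, -0.60 and -0.15 in fru-440/fru-P14, with -0.52 ± 0.22 (SE over 4 arrays, 1.43-fold, limma adjusted p = 0.216).

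The difference between the whole-body pairs was tested directly. Of 71 positive members tested, 30 differed between the pairs, 26 of them lower and 4 higher in fru-w12/fru-ChaM5. Of 31 negative members 9 differed, 3 lower and 6 higher there. Over all 6204 probes, 12.9% were lower and 6.48% higher in fru-w12/fru-ChaM5. The median difference was -0.40 log2 units for positive members, 0.097 for negative members and 0.093 for those of the 7461 tested. DAC032I05 differed by -3.81 ± 0.21 (SE, 14-fold, limma adjusted p = 6.46e-06), DAC004B03 by -3.40 ± 0.19 (SE, 10.5-fold, limma adjusted p = 6.46e-06), DAC024G07 by -3.01 ± 0.17 (SE, 8.04-fold, limma adjusted p = 6.46e-06) and DAC008J16 by 1.70 ± 0.15 (SE, 3.25-fold, limma adjusted p = 0.00024), each as fru-w12/fru-ChaM5 minus fru-440/fru-P14. Of the 71 positive members 28 (39.4%) were positive in fru-440/fru-P14 and negative in fru-w12/fru-ChaM5, against 21.7% of the 4313 probes tested in both among the 7461. Called in both pairs were 9 positive members, 3 with the same and 6 with opposite signs. Of 2 negative members called in both, DAC004L24 had the same sign and DAC008J16 opposite signs. Among the 4313 probes, 102 were called in both pairs, 38 with the same and 64 with opposite signs, so opposite signs were the commoner case there too. The pairs use separate wild-type strains as controls, so these differences hold strain as well as allele.

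The CNS mean of each member was set against its whole-body effect, both taken with their signs. For the fru-440/fru-P14 pair Pearson's r between the CNS mean and the whole-body effect was 0.178 over 77 positive members and 0.455 over 31 negative members, against 0.169 over 4400 probes. In fru-w12/fru-ChaM5 it was -0.133 over 85 positive and 0.256 over 42 negative members, against -0.0311 over 6085 probes. These are descriptions over members selected on the CNS values, whose points share the same arrays. The rule restricts the sign and mean of the CNS values, so no strength of relation is read from r over members.

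In the RNAi experiments no member passed with the ratios used as they stand. Read as Cy5 over Cy3 on every array, 6 members were called at 0 h and 21 in adults, and the median effects of positive and negative members were -0.091 and -0.062 at 0 h and -0.30 and -0.23 in adults. These are still the members chosen on the ratios as deposited. The share of all probes called under that reading is not given here, so these counts do not set the members apart. At 0 h APF none of 39 positive and none of 32 negative members tested was called by limma, while 9 (23.1%) and 4 (12.5%) had an unadjusted p under 0.05, against 6.34% of the 5096 tested among the 7461. Over the 5934 probes tested 0.0674% had a called positive and 0.0% a called negative ratio. The median log2 ratio was 0.038 for positive members, -0.0081 for negative members and -0.0045 for the 7461 probes, and on single arrays the positive members had medians of -0.071, -0.0077, 0.24 and 0.0030. The member with the smallest p was DAC032I05, with 1.64, 1.16, 0.46 and 0.39 on the 4 arrays, all positive and higher where the RNAi sample was in Cy5 (the first pair), giving 0.91 ± 0.13 (SE over 4 arrays, 1.88-fold, limma adjusted p = 0.0988). It is the probe with the largest whole-body ratio in fru-440/fru-P14. It passed with the arrays scaled to one spread, at an effect of 1.05. It also passed with the fru CNS arrays in the fit, at an unchanged effect of 0.91. The spread of that fit comes partly from the arrays that chose the members, so this call is no independent support. DAC026B13 had 1.68, 1.54, 1.04 and -1.02, high on 3 arrays and low on replicate 4, with 0.81 ± 0.27 (SE over 4 arrays, 1.75-fold, limma adjusted p = 0.57).

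Ratios of a single sign on every 0 h array were positive in 3 and negative in 0 of the 39 positive members, and positive in 3 and negative in 2 of the 32 negative members (over probes 5.85% and 5.42%). DAC037C07 was among those with a single sign, at 0.25, 0.022, 0.60 and 0.19, all above 0, with 0.27 ± 0.12 (SE over 4 arrays, 1.2-fold, limma adjusted p = 0.767). DAC007B12, a negative member, had -1.48, -0.87, 0.16 and 0.29, negative only where the RNAi sample was in Cy5, with -0.47 ± 0.13 (SE over 4 arrays, 1.39-fold, limma adjusted p = 0.372). DAC024C11 had -0.83, -0.30, 0.33 and 0.26, likewise split by dye, with -0.14 ± 0.12 (SE over 4 arrays, 1.1-fold, limma adjusted p = 0.898).

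In RNAi adults none of 31 positive and none of 32 negative members was called by limma, with 2 (6.45%) and 1 (3.12%) at an unadjusted p under 0.05 against 2.65% of the 5094 tested among the 7461, and over 5992 probes 0.0334% were called positive and 0.0% negative. The smallest p belonged to DAC004L24, with 1.90, 0.31 and 0.57 on the 3 arrays with a value. All were positive, the array with the RNAi sample in Cy5 far above the others, and the effect was 1.17 ± 0.22 (SE over 3 arrays, 2.25-fold, limma adjusted p = 0.625). This negative member of the CNS list was called negative in both whole-body pairs, whose direction has no stated link to that of the CNS ratios. Ratios of a single sign on every adult array were found in 0 (positive) and 1 (negative) of the 31 positive members and in 1 and 1 of the 32 negative members (over probes 1.14% and 2.71%).

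Many positive members changed sign between the dye orientations on the adult arrays, with the ratios as deposited. Read as Cy5 over Cy3, the same values have a single sign, and the median effect of positive members was -0.30. Which reading holds was not tested. Of 28 positive members with all 4 values, 15 (53.6%) were negative on both arrays with the RNAi sample in Cy5 and positive on both with it in Cy3, and 0 had the reverse pattern, against 23.4% and 24.0% of 4594 probes. Of 30 negative members 13 (43.3%) and 5 (16.7%) had these patterns. DAC004B03 had -1.46, -0.96, 2.06 and 1.19 on replicates 1 to 4, DAC029D04 had -1.26, -1.15, 0.65 and 0.28, and DAC037C07 had -0.77, -1.15, 0.79 and 0.73. Each of these was below 0 on the Cy5 arrays and above 0 on the Cy3 arrays, and their fitted effects were 0.21, -0.37 and -0.099 log2 units (limma adjusted p = 0.997 for each). DAC033A13, which had varied little on the fru CNS arrays, had -1.24, -1.44, 1.09 and 0.40, with the same split. The medians of the positive members on the adult arrays were -0.52, -0.35, 0.38 and 0.26. On the sex arrays the same patterns held 11 and 2 of 55 positive members (20.0% and 3.64%), against 20.2% and 21.8% of 5228 probes, and on the 0 h arrays 6 and 3 of 30 (20.0% and 10.0%), against 20.3% and 20.7% of 4281 probes. Of negative members 25.6% and 10.3% of 39 had them on the sex arrays, and 26.9% and 7.69% of 26 on the 0 h arrays. For positive members the share of the first pattern was near that of all probes on the sex and 0 h arrays. The part of dye in these values was not tested.

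The change of the RNAi effect between 0 h and adults was called in none of 23 positive and 27 negative members by limma (0 and 1 at an unadjusted p under 0.05), and in 0.0206% of 4853 probes. DAC007B12 had the smallest p, at -1.48, -0.87, 0.16 and 0.29 at 0 h and -0.79, -0.24, 0.79 and 0.58 in adults. Both times split by dye, and the difference, adult minus 0 h, was 0.56 ± 0.19 (SE, 1.47-fold, limma adjusted p = 0.996). Between these times the tissue changed too, from brain with ventral nerve cord to brain.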

How the data were processed

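The authors deposited a single table with a value, or an empty cell, for each probe on each array. They processed the scans with limma, per the submitters' processing notes, and how background and normalization were handled is not given in the sources used here. As judged from the values, the authors deposited log2 ratios on 27 of 30 arrays, with array medians from -0.0804 to 0.0413 and values for 5553 to 11533 probes. On 3 arrays (RNAi at 48 h, replicates 2 to 4) the deposited values are of unknown scale and were kept as a score. That experiment therefore entered no test, and only the signs of its values are described. Ratios were used as deposited and read as already turned to one direction within an experiment, an assumption that the negative correlations between dye orientations on the CNS arrays go against.

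The members and lists were chosen with earlier results of these data known. Members were selected on the fru CNS arrays, which therefore stayed out of the main tests and entered the fit only in an alternative. Effects were tested by the lmFit and eBayes functions of limma 3.58.1 under R 4.3.3, two-sided. The CNS fit held 12 arrays and the whole-body fit 8. The fits were also run on simulated data. A limit on false calls was set there only for arrays that shared a spread per probe, as the model assumes. It was not set for a separate spread in each experiment. Folds are 2 to the size of the log2 ratio. Samples are independent per the series' design text. The text names the 8 members of each sign with the largest means, up to 4 with the smallest adjusted p per test (1 where none passed), up to 8 called in at least 2 effects, those next to the size threshold and those in neighbouring wells. Alternatives were the dye coefficient, the direction of the ratios, the filter, the scale, the arrays fitted, the member rule and leaving out each replicate. Within the whole-body and CNS fits, dye orientation was the batch given by the labels. Signal over background is unknown, as no spot intensities were used.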

Additional observations from a re-analysis of the deposited data

Results flagged for a closer look

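Of 98 groups of 4 arrays examined among the named members, 4 had 1 array far from the other 3, and chance alone gives about 1 in 20 such groups. In the fru-440/fru-P14 whole-body pair, DAC034L24 had 0.20, 0.60, 0.60 and 0.65, replicate 1 at 0.20 standing below the rest. In the fru-w12/fru-ChaM5 whole-body pair, DAC037B06 had -0.0076, -0.077, -0.01 and 0.55, replicate 8 at 0.555 standing above. In RNAi adults, DAC030B09 had -0.73, -0.0092, 0.089 and 0.12, replicate 1 at -0.725 standing below, and DAC024G07 had 0.25, -1.27, 0.30 and 0.39, replicate 2 at -1.27 standing below.

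Of the 34 named members, 13 had whole-body effects of the allele pairs that differed in the test of the difference by limma. Some members were named for a small adjusted p in this test or in the whole-body tests, so the count is only a listing. Over all 6204 probes tested, 1202 were called. The difference, fru-w12/fru-ChaM5 minus fru-440/fru-P14 in log2 units, was negative in 11: -3.81 for DAC032I05, -3.40 for DAC004B03, -3.01 for DAC024G07, -2.11 for DAC026B13, -1.58 for DAC030F07, -1.30 for DAC037C07, -1.27 for DAC037N08, -1.19 for DAC021O02, -1.10 for DAC030B09, -0.927 for DAC039E15 and -0.745 for DAC034L24. It was positive for DAC008J16 at 1.70 and DAC037L17 at 1.40.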

How the results depend on the processing

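The counts of called members depended most on how the ratios are read. Read as Cy5 over Cy3 on every array, 11 members in place of 2 were called between the sexes, 6 in place of 0 in RNAi at 0 h and 21 in place of 0 in RNAi adults, while 0 were called in either whole-body pair (main counts 24 in fru-440/fru-P14 and 43 in fru-w12/fru-ChaM5) and 0 in place of 39 between the pairs. Under that reading these changed sign: DAC013J21 between the sexes (-0.0063), DAC008J16 in fru-440/fru-P14 (0.19) and between the pairs (-0.25), DAC024G07 in fru-w12/fru-ChaM5 (0.51) and between the pairs (0.17), and DAC004B03 (0.22), DAC037N08 (0.42) and DAC021O02 (0.53) in fru-w12/fru-ChaM5. The lists stayed those chosen on the ratios as deposited, and the share of all probes called under that reading is not given here. The cause of these changes was not tested. Without a dye coefficient 1 member was called between the sexes and 25 in fru-w12/fru-ChaM5. With that pair fitted alone 28 were. Where each dye orientation had to give at least 2 values, 1 was called between the sexes. In RNAi at 0 h 1 was called with the arrays scaled to one spread and 1 with the fru CNS arrays in the fit. The latter fit takes its spread partly from the arrays that chose the members.

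Leaving out one replicate at a time gave 0 to 2 called members between the sexes (0 without replicate 1, 3 or 4), 11 to 16 in fru-440/fru-P14 (12, 11 and 14 without replicate 1, 2 or 3), 26 to 31 in fru-w12/fru-ChaM5, 0 to 1 in RNAi at 0 h (1 without replicate 4), 0 to 0 in RNAi adults and 26 to 33 between the pairs. These fits also tested fewer members: 20 to 22 of the 24 and 32 to 36 of the 43. Of the 98 positive members, 51 remained with a mean of at least 0.6 and 44 with 6 values; of the 50 negative members 14 reached 0.6. With 0.6, called members were 15 in fru-440/fru-P14, 23 in fru-w12/fru-ChaM5 and 22 between the pairs, and with 6 values 0 between the sexes, 15, 23 and 18. Leaving out a fru CNS array, with at least 4 values asked for, gave 96 to 368 positive members (368 without replicate 1 and 269 without replicate 6) and 66 to 104 negative ones; read as Cy5 over Cy3 there were 451 and 546. Between RNAi times the replicate block left 0 called members, as did the fit without it, and the shared numbers are not stated to pair samples. Of 195 alternatives for named members 174 kept direction and side of the threshold, 10 lost and 3 gained the call, and 8 changed sign. Of 110 for list medians 103 moved by less than the spread between replicates. Among the 103 were positive members in RNAi adults, which went from -0.039 to -0.30 read as Cy5 over Cy3. Their medians on single arrays ran from -0.52 to 0.38, so a move within that spread is no sign of stability there. The 7 others were 5 read as Cy5 over Cy3 (positive members from 0.14 to -0.24 between the sexes, from 0.15 to 0.043 in fru-440/fru-P14 and from -0.20 to 0.081 in fru-w12/fru-ChaM5, negative members from -0.14 to 0.063 in fru-440/fru-P14 and from 0.016 to -0.23 in RNAi adults) and positive members in fru-w12/fru-ChaM5 without replicate 6 (-0.12) or 7 (-0.11). Signal over background is unknown, and 4 arrays per group limit every call.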

Other observations

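In the EcR-A RNAi experiment at 48 h APF, of which 3 arrays have an unknown scale, only signs were read. On an unknown scale a sign need not be a direction of change. The RNAi sample was in Cy5 on replicates 1 and 2 and in Cy3 on replicates 3 and 4. On replicates 1 to 4, 33.8%, 28.0%, 36.5% and 44.8% of the 74, 50, 63 and 58 values of positive members were above 0. Over all probes with at least 5 fru CNS values these shares were 52.7%, 49.0%, 53.2% and 56.2%. For negative members 54.3%, 29.2%, 67.7% and 45.2% of their 35, 24, 31 and 31 values were above 0. The share above 0 was thus lower for positive members than for all these probes on all 4 arrays, and higher for negative members on 2 of them. No test was made of these shares, since probes of one array are not replicates.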
